A study of Mus musculus with 4 samples.

Results

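The genes described here are 47 genes of mitosis, the phase in which a cell separates its copied chromosomes and divides. They were chosen by name, and each was read by its brightest probe among those whose accession belongs to the gene, out of 22911 genes with a named probe on the array. Their RNA was measured in 4 populations of tumour cells from the mouse intestine, each on 1 one-colour (Cy3) array. All 4 populations came from Lgr5CreERT2/+; Ctnnb1lox(ex3)/ox(ex3) mice at 14 days after tamoxifen, so every group carried the same alleles and had the same treatment, and no untreated or unrecombined group was compared. In this model tamoxifen activates a Cre recombinase made by cells that express Lgr5, the receptor of intestinal stem cells, and Cre removes an exon of Ctnnb1 so that a stable beta-catenin is made. EpCAM+ epithelial tumour cells were sorted by Lgr5 and by a tuft marker, IL17RB in the design text, which gives the 4 combinations of both markers. The number of animals behind each sort was not stated in the labels. With 1 array per population nothing was tested, no p-value is given, and the number of arrays limits the precision.

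Cells enter mitosis when Cdk1 is bound by cyclin A or B and is switched on by Cdc25 phosphatases. Chromosomes are then attached to the spindle at kinetochores, the spindle checkpoint holds the cell until every chromosome is attached, and the anaphase-promoting complex marks cyclin B and securin for destruction so that sister chromosomes part and the cell divides. Most of these genes are switched on together late in the cell cycle, so their RNA is widely used as a readout of dividing cells, which in the intestine lie in the crypts. Tuft cells are chemosensory cells of the gut lining that are mostly not dividing in normal tissue.

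Promoters of such genes are known to carry 2 short motifs, the CHR element (TTTGAA), through which the DREAM and MuvB complexes act, and the CCAAT box, bound by NF-Y. The windows below are RefSeq sequence of the GRCm38.p6 build, each of the 250 bases before the start of the gene, 5′ to 3′ on the gene's strand, with both motifs of either strand in capitals. Kif11, Ccnb1, Nek2, Ube2c and Mki67 are shown from among the members at least 2-fold lower with the tuft marker within Lgr5-. They were picked with their values known. Nek2 had the widest difference of all members there (-3.10), and Kif11 (-2.27) and Ccnb1 (-2.17) were among the widest. Cdc25c (-2.89), which differed more than either of these, is not shown. Bub3 is shown because it was the 1 member higher by any amount with the tuft marker in both Lgr5 classes, by less than 2-fold in each.
Kif11 (chr19:37376132-37376381, plus strand): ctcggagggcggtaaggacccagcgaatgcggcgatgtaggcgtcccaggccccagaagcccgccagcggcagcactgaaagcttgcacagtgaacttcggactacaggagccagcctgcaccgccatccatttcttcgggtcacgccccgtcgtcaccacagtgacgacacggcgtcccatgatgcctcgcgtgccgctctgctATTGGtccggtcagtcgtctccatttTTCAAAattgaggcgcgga
Ccnb1 (chr13:100786487-100786736, minus strand): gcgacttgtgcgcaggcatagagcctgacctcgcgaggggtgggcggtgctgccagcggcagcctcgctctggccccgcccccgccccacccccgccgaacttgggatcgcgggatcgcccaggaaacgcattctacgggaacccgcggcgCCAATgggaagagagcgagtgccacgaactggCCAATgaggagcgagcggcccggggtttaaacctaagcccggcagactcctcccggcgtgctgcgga
Nek2 (chr1:191821223-191821472, plus strand): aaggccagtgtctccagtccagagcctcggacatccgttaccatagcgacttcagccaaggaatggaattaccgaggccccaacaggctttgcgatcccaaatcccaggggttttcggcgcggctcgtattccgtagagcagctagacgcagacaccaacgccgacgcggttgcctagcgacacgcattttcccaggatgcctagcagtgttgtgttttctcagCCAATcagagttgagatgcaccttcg
Ube2c (chr2:164769679-164769928, plus strand): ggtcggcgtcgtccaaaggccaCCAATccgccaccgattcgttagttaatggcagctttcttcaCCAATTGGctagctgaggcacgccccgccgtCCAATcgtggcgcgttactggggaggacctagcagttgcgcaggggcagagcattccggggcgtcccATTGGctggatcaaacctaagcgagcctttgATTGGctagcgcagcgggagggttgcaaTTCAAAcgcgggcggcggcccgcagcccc
Mki67 (chr7:135716380-135716629, minus strand): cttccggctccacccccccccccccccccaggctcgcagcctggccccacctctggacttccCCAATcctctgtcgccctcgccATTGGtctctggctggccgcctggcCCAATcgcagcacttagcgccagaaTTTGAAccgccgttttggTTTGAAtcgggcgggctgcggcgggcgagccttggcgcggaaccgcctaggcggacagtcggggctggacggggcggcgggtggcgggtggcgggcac
Bub3 (chr7:131560120-131560369, plus strand): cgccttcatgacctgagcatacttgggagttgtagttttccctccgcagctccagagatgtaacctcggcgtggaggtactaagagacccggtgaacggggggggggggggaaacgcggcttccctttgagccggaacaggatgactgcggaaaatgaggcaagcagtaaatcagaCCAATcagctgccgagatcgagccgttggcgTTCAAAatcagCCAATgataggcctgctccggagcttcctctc
TTTGAA was found in the windows of Kif11, Ube2c, Mki67 and Bub3, and CCAAT in all 6. Of 41 members matched by symbol in the promoter table, 14 (34.1%) held TTTGAA on either strand, against 16.0% of all 32841 windows of this length and 16.3% of 18074 array genes, which are counted per gene as the members are. In the last 60 bases before the start it began in 10 of the 41 (24.4%), against 3.19% of windows and 3.05% of array genes. CCAAT was found in 30 of 41 (73.2%), against 33.9% of windows and 39.0% of array genes, and at 2 or more places in 20 of 41 (48.8%), against 10.1% and 12.6%. A match describes these letters only and is not a site. The 14 members with TTTGAA had a median log2 difference of -1.15 between tuft marker+ and tuft marker- cells within Lgr5-, and the 26 measured members without it one of -0.85. Within Lgr5+ the same groups had medians of -0.27 and -0.35.

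Levels below are log2 signals relative to the array's 75th percentile, so 0 is that percentile, and they are always given in the order Lgr5+ cells with and without the tuft marker, then Lgr5- cells with and without it. Levels of different genes are not compared, since each is read by its own probe. Between 60.2% and 69.0% of gene spots were well above background on the 4 arrays. Counting a gene as above background if any of its probes was, 43, 46, 44 and 46 of the 47 members were, in that order. Of all 22911 genes, 15326, 16893, 17157 and 15949 were. All 4 arrays lay above background for 43 members and for 14053 of the 22911 genes. Kif18a, a kinesin that aligns chromosomes, was not well above background on any array and gives no difference. The sort genes differed as labelled, with Il17rb 6.75-fold and at least 14.0-fold higher with the tuft marker within Lgr5+ and within Lgr5-, and Lgr5 at least 7.34-fold and 5.23-fold higher in Lgr5+ cells within tuft marker+ and within tuft marker-. Epcam, whose product was the marker shared by all sorts, was not even across them, with levels of 5.02, 5.22, 4.52 and 5.56. Between the Lgr5- arrays Epcam was 2.06-fold lower in tuft marker+ cells (log2 difference -1.04, error 0.20), and between the Lgr5+ arrays it differed by -0.20. All 10 epithelial markers of a short list, Epcam among them, were above background on every array. Tuft markers had summed signals of 92.5, 7.88, 76.2 and 3.06 times the 75th percentile of their arrays.

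**Figure D1:**
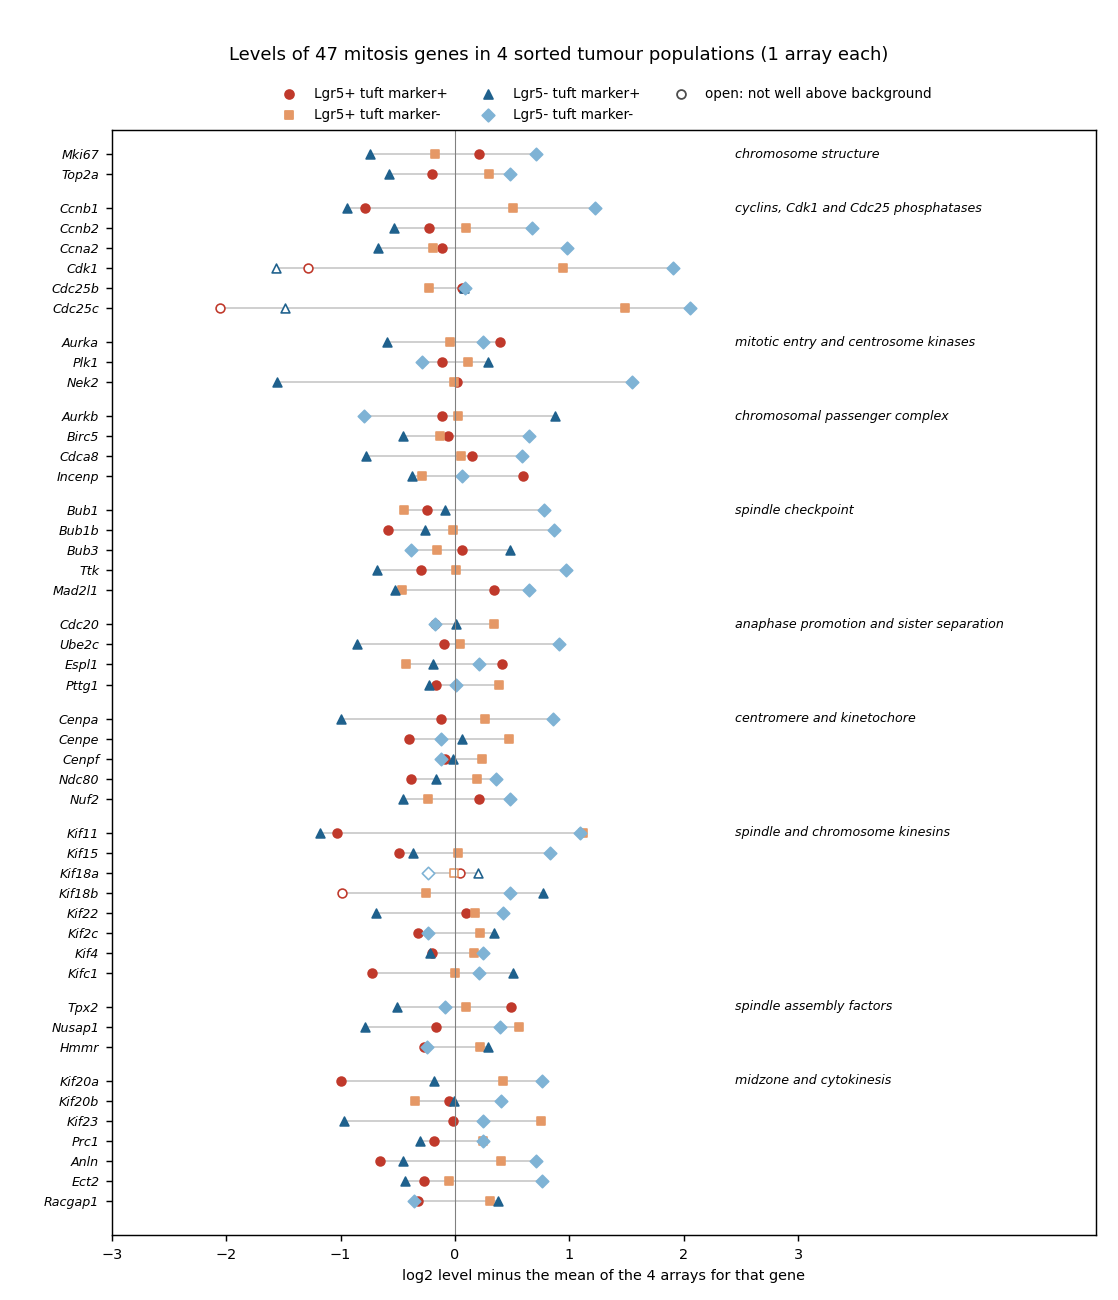
Level of each of 47 mitosis genes on the 4 arrays, as the log2 level of the brightest probe minus the mean of that gene over the arrays (horizontal axis), grouped by role; each point is 1 array, and open points had no probe of the gene well above background. Lgr5- tuft marker- cells lie furthest right for 25 of 43 members above background on all arrays, and Lgr5- tuft marker+ cells furthest left for 24 of 43.

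Lgr5- tuft marker- cells had the highest levels of most members and Lgr5- tuft marker+ cells the lowest. Of the 43 members above background on all arrays, 25 (58.1%) were highest in Lgr5- tuft marker- cells, against 27.8% of the 14053 genes so measured, and 24 (55.8%) were lowest in Lgr5- tuft marker+ cells, against 34% of genes. In the latter cells 7 members (16.3%) were highest, against 29.9% of genes. Ttk counts among the 24, although its brightest probe was not well above background in these cells. After centring each gene on its mean, the median member stood at -0.17, 0.09, -0.38 and 0.41, while the median gene stood at 0.02, 0.00, -0.03 and 0.00. In a bulk sort, fewer dividing cells and less mitotic RNA per cell cannot be told apart.

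Within Lgr5- cells, most mitosis genes were lower with the tuft marker. Of 46 measured members 22 (47.8%) were at least 2-fold lower in tuft marker+ cells, against 12.3% of 17911 genes, and 1, Aurkb, was at least 2-fold higher (2.17%), against 16.5% of genes. The median difference was -0.94 on the log2 scale, and that of all genes was 0.08. Members ran from -3.10 for Nek2 to 1.67 for Aurkb, and 35 of 46 lay below 0, against 46.8% of genes. The error that the scanner software gives for a spot, carried to the difference, had a median of 0.21 over the members, and 5 members differed by less than their own error. This error describes how precisely spots were read, and not how animals or sorts vary. With the authors' own scaling of the arrays, 11 members were at least 2-fold lower and 3 higher with a median of -0.65, against 6.52% and 24.8% of all genes and their median of 0.37. After another background correction (normexp) 7 were lower and 1 higher with a median of -0.37, against 4.41% and 5.31% of genes and their median of 0.04.

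Within Lgr5+ cells the share of members 2-fold lower with the tuft marker was close to that of all genes, while more of them than of all genes lay below 0. There 4 of 46 measured members (8.70%) were at least 2-fold lower in tuft marker+ cells, against 8.23% of 17501 genes, and none was 2-fold higher, against 10.5%. The 4 were Kif11, Cdc25c, Kif20a and Ccnb1, and after normexp none of the members was 2-fold apart. The median was -0.32, beside 0.00 for all genes, and became -0.027 after normexp. Of the 46, 31 (67.4%) lay below 0, against 49.8% of genes. These signs depend on the probe read. A second probe was above background on either Lgr5+ array for 21 members, and for 11 of them its sign was opposite. Among 5653 genes of this kind the signs were opposite for 45.1%. In both Lgr5 classes 3 of 46 members (6.52%) were at least 2-fold lower with the tuft marker, namely Kif11, Ccnb1 and Cdc25c, against 1.44% of 16757 genes. By any amount, 21 members (45.7%) were lower in both classes, against 22.8% of genes, and 14 (30.4%) were higher within Lgr5+ and lower within Lgr5-, against 25.4%. Another 10 went the other way round and 1 was higher in both. The shares of all genes with these last patterns were not counted, so nothing is read from those counts. None was 2-fold higher in both (4.82% of genes) or 2-fold in opposite directions (2.67%). The difference within Lgr5- minus that within Lgr5+ had a median of -0.62 over the members and of -0.02 over all genes, and the interaction was not tested, since each class had 1 pair of arrays.

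**Figure D2:**
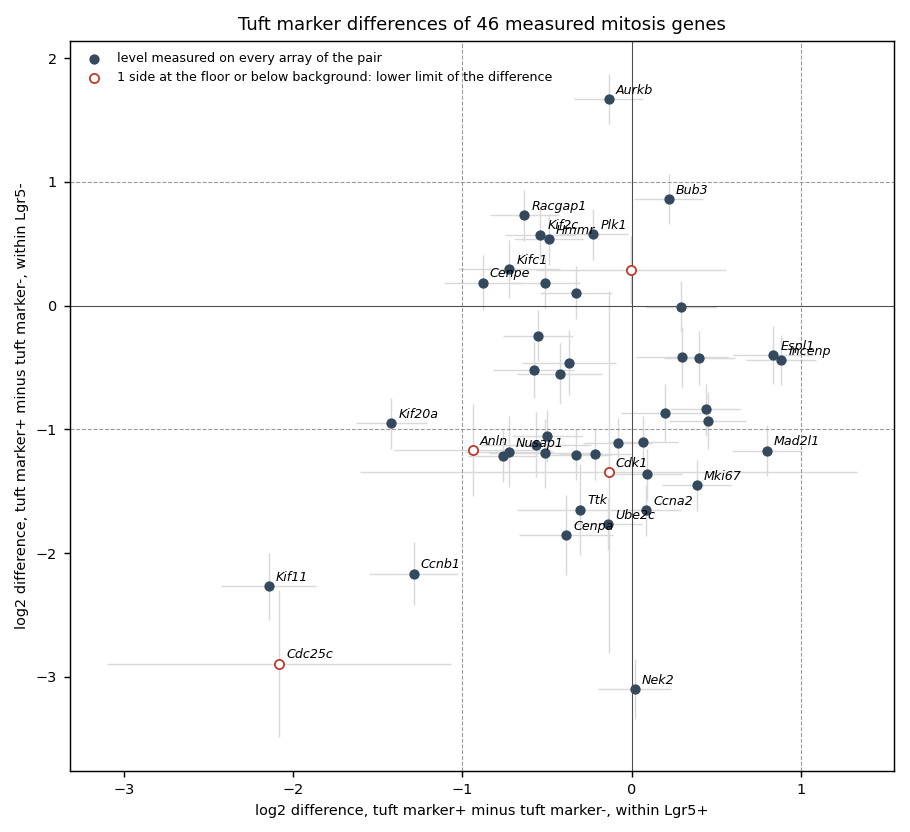
Log2 difference of tuft marker+ minus tuft marker- cells within Lgr5+ (horizontal axis) and within Lgr5- (vertical axis) for 46 mitosis genes; bars are the scanner error, dashed lines mark 2-fold, and open points are lower limits. Kif11, Ccnb1 and Cdc25c lie past 2-fold lower on both axes, and Nek2 at 0.02 and -3.10.

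The cyclins and their partners had the lowest median of the 10 role groups within Lgr5-. Of the 6 members of this group 5 were at least 2-fold lower with the tuft marker there, against 12.3% of all genes, with a median of -1.50. Within Lgr5+ 2 were so, against 8.23% of all genes, and the median was -0.23. Ccnb1, cyclin B1, which carries Cdk1 into mitosis, had levels of -2.17, -0.89, -2.34 and -0.17. Both tuft marker+ arrays lay below both tuft marker- arrays, by 2.44-fold within Lgr5+ (log2 difference -1.29, error 0.26) and by 4.49-fold within Lgr5- (-2.17, error 0.25). A second Ccnb1 probe read -0.94 and -1.54, and another one read 0.20 and -0.06. Cdc25c, the phosphatase that removes the inhibitory phosphates from Cdk1, stood at -1.33 (Lgr5+) and -0.76 (Lgr5-) without the tuft marker and was not well above background in either population with it. With the tuft marker it was lower by at least 4.23-fold within Lgr5+ and 7.43-fold within Lgr5-, both of them limits. Under other processing settings the differences within Lgr5+ and within Lgr5- shrank to as little as -0.53 and -0.98 for Cdc25c. For Ccnb1 they shrank to as little as -0.51 and -1.07. Cdc25b, a relative of Cdc25c, by contrast, was nearly flat at 0.78, 0.49, 0.80 and 0.81.

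Cyclin A2 and cyclin B2 were past 2-fold within Lgr5- and not within Lgr5+. Ccna2, whose product acts in S phase and at entry into mitosis, had levels of 0.68, 0.60, 0.12 and 1.77, so that Lgr5- tuft marker- cells stood above the rest and the Lgr5+ arrays differed by 0.09 (error 0.21). A second Ccna2 probe, above background on all arrays, read a difference of 0.53 within Lgr5+ and -1.71 within Lgr5-. Ccnb2 followed the order of the brightest Ccna2 probe at its ends, with -0.12, 0.21, -0.43 and 0.78. It was 2.31-fold lower with the tuft marker within Lgr5-. For Cdk1 itself the probe was dim, at -3.28 (Lgr5+) and -2.31 (Lgr5-) without the tuft marker and not well above background with it. Cdk1 was lower with the tuft marker by at least 2.54-fold within Lgr5-, with an error of 1.46 on the log2 scale, and the limit within Lgr5+ was 1.10-fold.

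Kinases of mitotic entry went different ways. Nek2, which loosens the link between centrosomes, had levels of -0.59, -0.61, -2.16 and 0.94. Its Lgr5+ arrays were alike (difference 0.02, error 0.22), while within Lgr5- it was 8.57-fold lower with the tuft marker (-3.10, error 0.24), the widest gap among members measured on both arrays of that pair. Aurka, the centrosomal Aurora kinase, stood at 1.09, 0.66, 0.11 and 0.94 and was lowest in Lgr5- tuft marker+ cells. Plk1, the Polo kinase that acts from entry to cytokinesis, had its highest level in those same cells, at 1.50, 1.73, 1.91 and 1.33.

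The chromosomal passenger complex, in which Aurora B, survivin (Birc5), borealin (Cdca8) and Incenp correct faulty attachments, did not differ as a unit on these probes. Birc5 (4.32, 4.25, 3.93 and 5.03) and Cdca8 (1.71, 1.62, 0.78 and 2.15) were 2.14-fold and 2.57-fold lower with the tuft marker within Lgr5- and differed by 0.07 and 0.09 between the Lgr5+ arrays. Their second probes read -1.82 and -1.36 within Lgr5-, and -0.37 and -0.96 within Lgr5+, so the small difference there held on the brightest probes alone. Aurkb stood at 3.38, 3.52, 4.37 and 2.70, which is 3.18-fold higher with the tuft marker within Lgr5- (1.67, error 0.20). A second Aurkb probe read the opposite, with -2.96, -1.82, not well above background, and -1.81, a difference of -1.85 or lower within Lgr5- and of -1.14 within Lgr5+. Incenp was highest in Lgr5+ tuft marker+ cells on its brightest probe, at 1.03, 0.14, 0.05 and 0.49. Its second probe was lowest there, at -0.22, 0.20, 0.11 and 0.33.

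Spindle checkpoint genes were lower with the tuft marker within Lgr5-, with a median of -1.12, against 0.20 within Lgr5+. At least 2-fold lower within Lgr5- were 3 of 5, against 12.3% of all genes. Ttk, the Mps1 kinase that starts checkpoint signalling, stood at -1.98 without the tuft marker within Lgr5-, where its brightest probe was not well above background with it. It counts among these 3 through that probe, and the other Ttk probes, above background on both arrays, read -0.63 and -0.26. Mad2l1, which inhibits Cdc20, split by Lgr5 class, with 0.72, -0.08, -0.14 and 1.03, higher with the tuft marker within Lgr5+ (0.80) and lower within Lgr5- (-1.17). That split was on its brightest probe, and a second one, above background on all arrays, was lower in both classes (-0.77 and -1.76). Bub1 and Bub1b, kinase-family scaffolds of the checkpoint, were highest in Lgr5- tuft marker- cells. Bub1 stood at -1.85, -2.05, -1.69 and -0.83, and Bub1b at -2.75, -2.18, -2.42 and -1.30, so that the other 3 arrays lay close together. Bub3, the partner that brings both to kinetochores, was the 1 member higher in both classes, with levels of 2.09, 1.87, 2.51 and 1.65. Its differences were 0.22 within Lgr5+, about its scanner error of 0.20, and 0.86 within Lgr5-.

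Of the genes that end mitosis, Ube2c, the ubiquitin-conjugating enzyme of the anaphase-promoting complex, stood at 0.31, 0.46, -0.44 and 1.32 and was 3.40-fold lower with the tuft marker within Lgr5- (-1.76, error 0.21). Cdc20, which activates that complex, was nearly level between the Lgr5- arrays, with 2.27, 2.78, 2.44 and 2.26, but its second probe was 1.46 lower on the log2 scale in tuft marker+ cells there (1.26, 1.03, 0.31 and 1.76). Pttg1, securin, and Espl1, the separase it holds back, stayed within 2-fold in all 4 pairs, and Espl1 was highest in Lgr5+ tuft marker+ cells at -1.11, beside -1.95, -1.71 and -1.31.

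At the kinetochore, Cenpa, the histone H3 variant that marks centromeres, had levels of -2.43, -2.05, -3.30 and -1.45 and was 3.61-fold lower with the tuft marker within Lgr5- (-1.85, error 0.32). Ndc80 and Nuf2, which bind spindle microtubules as partners, differed by -0.52 and -0.93 there and by -0.58 and 0.45 within Lgr5+. Cenpe, the kinetochore motor, and Cenpf, a kinetochore protein, differed by 0.18 and 0.10 within Lgr5- on their brightest probe, and the second Cenpf probe read -1.75 there.

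Among kinesins, Kif11 (Eg5), the motor that pushes spindle poles apart, separated the tuft marker classes and not the Lgr5 classes. Its levels were -2.59, -0.44, -2.73 and -0.47, so both tuft marker+ arrays lay below both tuft marker- arrays. It was 4.42-fold lower within Lgr5+ (-2.14, error 0.28) and 4.82-fold lower within Lgr5- (-2.27, error 0.27), while the Lgr5 differences were 0.15 and 0.02. Under other processing settings the tuft marker differences shrank to as little as -0.85 and -0.96, both under 2-fold. Kif11 had 1 probe, so no second reading of it was at hand. Kif22, the chromosome arm motor, stood at 2.64, 2.72, 1.86 and 2.97 and was 2.16-fold lower with the tuft marker within Lgr5-, and Kif15, a motor that backs up Kif11, was 2.29-fold lower at -2.88, -2.37, -2.76 and -1.56. Kif4, a motor of chromosome arms and midzone, differed by less than 2-fold throughout, at -2.43, -2.06, -2.44 and -1.98. Kif18b, which shortens microtubule ends, and Kifc1, which moves to their minus ends, were at their highest in Lgr5- tuft marker+ cells, at -2.39 and -1.48, as was Kif2c, a microtubule depolymerase, at 0.38. Among tuft marker+ cells the Lgr5+ array was the lower one for both, by at least 2.04-fold for Kif18b and by 2.35-fold for Kifc1.

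Of the spindle assembly factors, Nusap1, which bundles microtubules, had levels of -2.13, -1.41, -2.75 and -1.57 and was 1.65-fold and 2.27-fold lower with the tuft marker. Tpx2, the activator of Aurora A, followed Aurka in being highest in Lgr5+ tuft marker+ cells (-0.10) and lowest in Lgr5- tuft marker+ cells (-1.10). For Hmmr, a spindle protein, the brightest probe read 2.77, 3.26, 3.33 and 2.80, higher with the tuft marker within Lgr5- (0.54), while 2 dimmer probes read -1.63 and -1.49.

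Genes of the midzone and of cytokinesis lay below 0 for the tuft marker in 6 of 7 cases within each class, against 49.8% of all genes within Lgr5+ and 46.8% within Lgr5-, and some of these differences, as that of Ect2 within Lgr5+ (-0.22), were about as large as the scanner error. Kif20a, the motor that carries passenger proteins to the midzone, stood at -0.60, 0.82, 0.21 and 1.16, that is 2.67-fold lower within Lgr5+ (-1.42, error 0.21) and 1.93-fold lower within Lgr5-. Kif23, a subunit of centralspindlin, was 1.70-fold and 2.32-fold lower, and Ect2, which turns on RhoA for the contractile ring, was 1.16-fold and 2.30-fold lower. A second Kif23 probe, above background on all arrays, read -0.08 within Lgr5+ and -1.43 within Lgr5-. The other centralspindlin subunit, Racgap1, went the other way within Lgr5- (0.73) with 1.21, 1.84, 1.90 and 1.17. Prc1, which bundles midzone microtubules, was lower with the tuft marker on both sides by less than 2-fold, at -2.01, -1.58, -2.13 and -1.58. Anln, anillin of the contractile ring, was 2.25-fold lower within Lgr5-, and Kif20b, a midzone motor, differed by 0.30 and -0.41. A second Kif20b probe, above background on all arrays, read -0.80 and -1.46. The second Racgap1 probe was above background on only 2 of the arrays, Lgr5+ with the tuft marker and Lgr5- without it.

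Mki67, which coats mitotic chromosomes and gives the Ki-67 antigen, and Top2a, the topoisomerase that untangles them, were both at least 2-fold lower with the tuft marker within Lgr5-. Mki67 stood at 2.04, 1.66, 1.10 and 2.55, a 2.74-fold difference there (-1.45, error 0.20) beside one of 0.39 the other way within Lgr5+. Top2a stood at -0.02, 0.48, -0.40 and 0.66 and differed by -1.05 (error 0.21) within Lgr5-, but its second probe read 0.22.

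Probes of 1 gene often disagreed. Within Lgr5-, 11 members read higher in tuft marker+ cells by their brightest probe. Of these, 6 had a second probe, namely Aurkb, Cdc20, Cenpf, Kif2c, Hmmr and Racgap1, and all 6 second probes read lower with the tuft marker, 5 of them by at least 2-fold, although those of Aurkb, Kif2c and Racgap1 were too dim on the tuft marker+ array to be well above background. The other 5, Plk1, Bub3, Cenpe, Kif18b and Kifc1, had 1 probe each. Over the 20 members whose second probe was above background on either Lgr5- array, 15 were at least 2-fold lower on the second probe and 11 on the brightest, with medians of -1.44 and -1.08. Among all 5783 genes of this kind 20.2% were 2-fold lower on the second probe and 14.8% on the brightest, and the signs were opposite for 28.8% of them, against 7 of these 20 members. Which transcripts each probe reads was not tested.

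**Figure D3:**
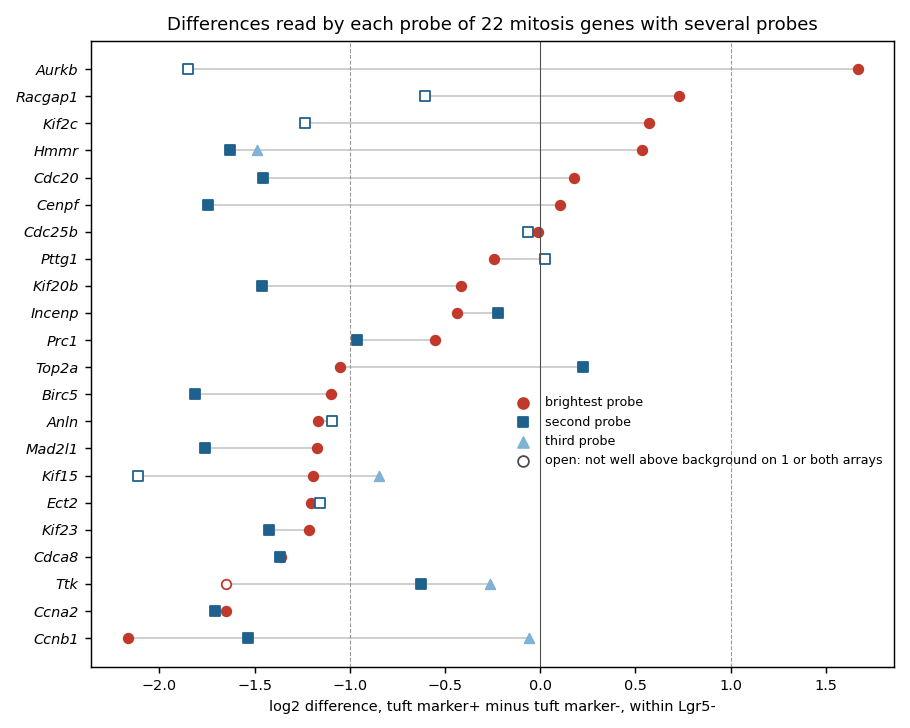
Log2 difference of tuft marker+ minus tuft marker- cells within Lgr5- (horizontal axis) read by each probe of the 22 mitosis genes with several probes, after values under the array's floor were raised to it; open symbols were not well above background on at least 1 of both arrays. For Aurkb, Racgap1, Kif2c, Hmmr, Cdc20 and Cenpf the brightest probe lies right of 0 and every other probe left of it.

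Between Lgr5+ and Lgr5- cells fewer members were past 2-fold than between the Lgr5- arrays. Within tuft marker- cells 4 of 46 (8.70%) were at least 2-fold lower in Lgr5+ cells, against 5.31% of 17527 genes, and none was 2-fold higher, against 6.56%. The 4 were Nek2 (-1.55), Bub1 (-1.22), Ccna2 (-1.18) and Mad2l1 (-1.11). Second probes of Ccna2 and Mad2l1, above background on all arrays, read -0.89 and -0.36, both under 2-fold, and Nek2 and Bub1 had 1 probe each. The median was -0.33, beside 0.00 for all genes, with 32 (69.6%) below 0 against 49.8% of genes. Within tuft marker+ cells 2 of 44 measured members (4.55%) were at least 2-fold lower in Lgr5+ cells, against 11.5% of 17625 genes, and 1 (2.27%) was higher, against 8.97%, which was Nek2 at 1.57 (0.62 after normexp). Below 0 lay 19 members (43.2%), against 52.3% of genes. The median there was 0.14 and turned to -0.03 with the authors' scaled values, and scaling to the median gave 10 members 2-fold higher and 1 lower, against 14.8% and 7.39% of genes, whose median moved to 0.18. Nek2 was thus lower in Lgr5+ cells without the tuft marker and higher with it, the 1 of 44 members (2.27%) with opposite 2-fold differences, against 2.5% of 16497 genes. None was 2-fold lower in both pairs, against 0.594%, or 2-fold higher in both, against 0.74%. By any amount, 10 of 44 (22.7%) were lower in Lgr5+ cells in both pairs, against 17.7% of genes, and 20 (45.5%) were higher within tuft marker+ and lower within tuft marker-, against 32.5%. Signs in these pairs depend on the probe read as well. Within tuft marker- the second probe had the opposite sign for 11 of 21 members, against 36.8% of 5688 genes with several probes. Within tuft marker+ it did for 9 of 18, against 35.6% of 5555 genes.

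The rest of the mitotic machinery, from lists of other genes, was set beside the members. Within Lgr5- the medians of tuft marker+ minus tuft marker- cells were -0.61 for condensin and cohesin (1 of 19 measured at least 2-fold lower), -0.63 for anaphase-promoting complex subunits (2 of 17), -0.53 for other kinetochore and checkpoint genes (9 of 32) and -0.54 for other spindle and cytokinesis genes (5 of 29). The first pair of these shares lies at or below the 12.3% of all genes 2-fold lower in this comparison. Within Lgr5+ the same lists stood at 0.14, 0.09, -0.25 and -0.03. Regulators of Cdk1 had a median of -0.53 within Lgr5- (5 of 16) and of 0.06 within Lgr5+ (3 of 16, against 8.23% of all genes). Among them Mastl, the Greatwall kinase that protects Cdk1 phosphorylations, was 2.26-fold and 6.18-fold lower with the tuft marker within Lgr5+ and within Lgr5-, and Pkmyt1, which phosphorylates and inhibits Cdk1, was 2.36-fold and 4.99-fold lower. Cdca3, from the list of other spindle and cytokinesis genes and a trigger of Wee1 destruction, was 5.22-fold lower within Lgr5- and level within Lgr5+ (-0.03).

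Regulators of mitotic gene transcription, activators and repressors together, had a median of -0.18 within Lgr5- and 0.06 within Lgr5+. At least 2-fold lower within Lgr5- were 4 of 21, against 12.3% of all genes. Lin54, the DNA-binding subunit of MuvB, had levels of 0.20, -2.12, -1.44 and -1.39 and differed by 2.32 between tuft marker+ and tuft marker- cells within Lgr5+ and by -0.04 within Lgr5-. E2f2, an activating E2F factor, was 1.76-fold higher within Lgr5+ and 2.51-fold lower within Lgr5-. Foxm1, an activator picked outside the rule for naming genes, had levels of -1.87, -1.26, -2.23 and -1.23, 1.52-fold lower with the tuft marker within Lgr5+ and just past 2-fold lower within Lgr5-. Mybl2, also picked outside the rule, was within 0.36 in both tuft marker pairs. DNA replication genes, which mark the preceding S phase, had medians of 0.00 within Lgr5+ (2 of 35 lower) and -0.86 within Lgr5- (15 of 35 lower), beside -0.32 and -0.94 for the mitosis genes.

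Other gene groups differed in the same pair. Within Lgr5- ribosomal protein genes had a median of -0.93 with 6 of 23 at least 2-fold lower, epithelial markers one of -0.73 with 2 of 10, and Lgr5 stem cell markers one of -1.03 with 4 of 7, beside -0.94 and 22 of 46 for the mitosis genes. Of all genes 12.3% were 2-fold lower there. Myeloid markers were higher with the tuft marker, at medians of 4.89 within Lgr5+ and 4.33 within Lgr5-, with 9 and 10 of 12 at least 2-fold higher and summed signals of 107, 40.0, 171 and 37.1. Stromal markers were higher as well, at 2.76 and 4.23, with 6 of 7 and 9 of 10 at least 2-fold higher and summed signals of 41.4, 31.9, 65.0 and 41.5. Of all genes 10.5% within Lgr5+ and 16.5% within Lgr5- were at least 2-fold higher with the tuft marker. On the Lgr5+ tuft marker- array the myeloid genes Adgre1, C1qa and C1qc were not above background, and the stromal genes Lum, Pdgfra and Pdgfrb were above it in Lgr5- tuft marker+ cells only. Markers of T and NK cells stood at -0.15 and 1.06, B and plasma cell markers 0.53 and 1.45, and Paneth cell markers -0.38 and -0.35 in both tuft marker pairs. The part of these other cells in the differences of the mitosis genes was not tested.

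**Figure D4:**
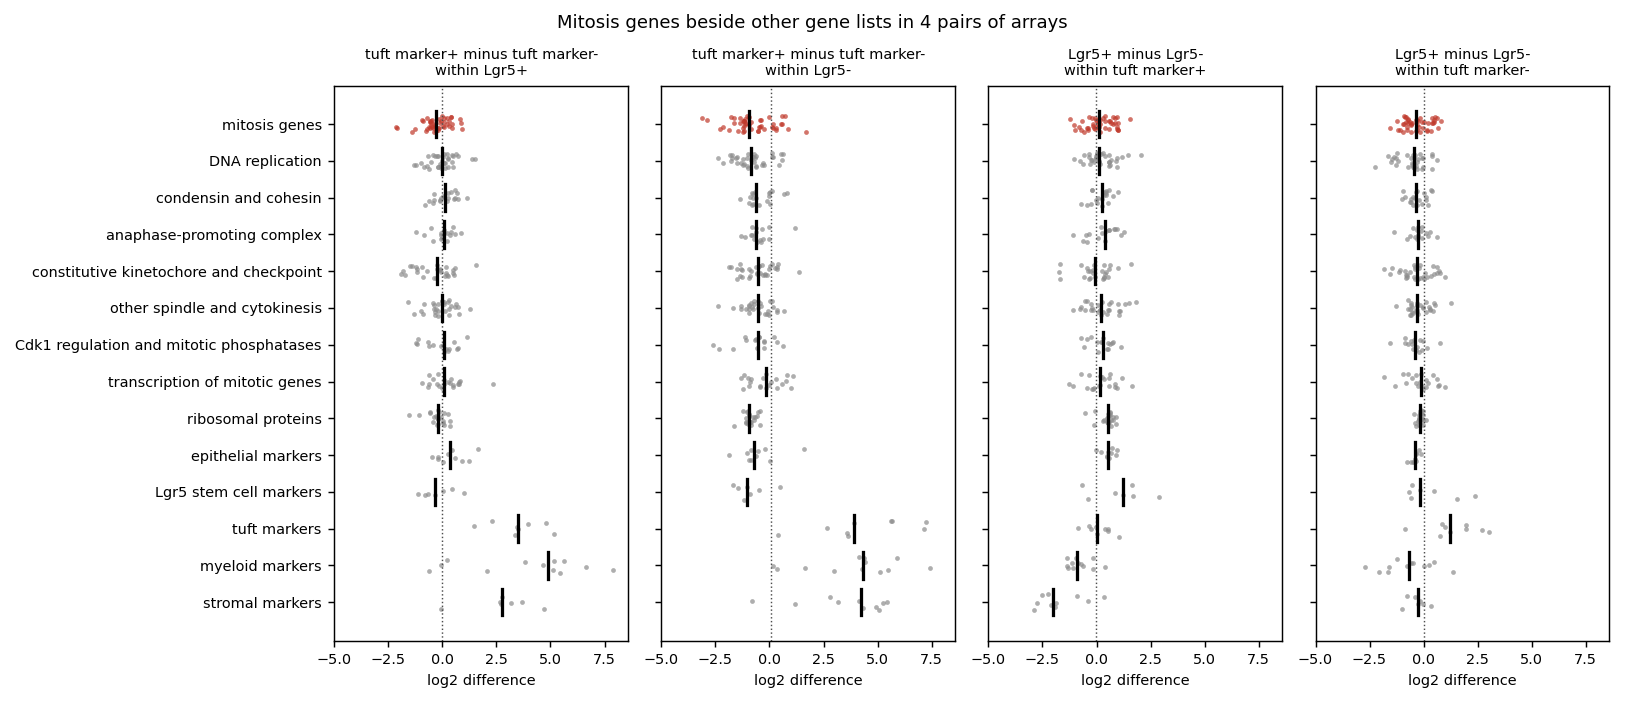
Log2 differences in the 4 pairs of arrays (panels) for mitosis genes (red) and for other gene lists (grey), with each point a gene, black bars the list medians and dotted lines the median of all genes. Within Lgr5- the mitosis genes (-0.94), DNA replication genes (-0.86) and ribosomal protein genes (-0.93) lie to the left, and myeloid (4.33) and stromal markers (4.23) to the right.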

How the data were processed

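Per the labels' protocols, total RNA of each sorted population was purified with a NucleoSpin kit and 13 ng was labelled with Cy3. Per the file headers, the deposited intensity values are spot signals after background subtraction and detrending by Agilent Feature Extraction 12.0.3.1, while the submitters' processing notes name 11.5.1.1. The authors also deposited a table of intensity values, which equal the scanner's multiplied by 1 constant per array. The same files hold flags for detection, saturation and outliers, set by the software, that count as other values deposited by the authors.

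Control spots and 91 to 122 outlier spots per array were left out, no spot was saturated, log2 was taken, the array's 75th percentile over gene spots was subtracted, and copies of a probe were averaged. Of 56605 probes 32994 were named through RefSeq accessions (GRCm38.p6). The array was annotated on mm9, so gene coordinates are not given. The array's floor was the lowest level of a probe well above background, from -3.86 to -3.41, and a value under it was set to the floor before subtraction, which gives "at least". A gene entered a pair if any of its probes was well above background on at least 1 array, and 2-fold was the threshold. The steps were tested on simulated data with changes well past 2-fold, planted only in genes above background on all arrays. That does not show how reliable calls near 2-fold or dim probes are. Members, role groups and lists were chosen with earlier results of these data known. Of each role group the members with the highest level and with the lowest and highest mean tuft marker difference were named, as were those past 2-fold in each pair of an axis, whichever way, or not detected. Of each pathway list, the pair of genes above background on all arrays with the widest mean tuft marker difference could be named. Members named beyond this rule, and Foxm1 and Mybl2, were chosen after their values were seen. Normexp (limma 3.58.1) was run on median spot signals, since mean signals were not in the files used.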

Additional observations from a re-analysis of the deposited data

Results flagged for a closer look

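Nek2 drew attention because its Lgr5 differences were opposite in the tuft marker classes, each past 2-fold. Lgr5+ minus Lgr5- cells differed by 1.57 within tuft marker+ and by -1.55 within tuft marker-, on 1 probe and 1 array per population. After normexp these became 0.62, which is under 2-fold, and -1.16. The difference between the classes was not tested. The same 4 values give its difference of -3.10 between the Lgr5- arrays, so these are not separate results.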

How the results depend on the processing

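No paired analysis was possible because each population had 1 array, and leaving out a replicate was not possible either. The 10 alternatives were other scalings, background corrections, detection filters and probe summaries, and use of the second brightest probe was added after seeing the data. Median differences ran from -0.35 to -0.027 (tuft marker within Lgr5+), from -1.175 to -0.37 (within Lgr5-), from -0.03 to 0.36 (Lgr5 within tuft marker+) and from -0.44 to -0.23 (within tuft marker-) over the 10 alternatives and the reported setting, leaving out the second probe. Relative to the median of all genes, the member medians were -0.32, -1.02, 0.18 and -0.33. Scaling to the median moved that of all genes within Lgr5- from 0.08 to -0.16, and the authors' scaling moved it to 0.37.

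After normexp, with an offset of 50, the tuft marker medians were -0.027 and -0.37. Members at least 2-fold lower then numbered 0, 7, 1 and 1 in the 4 pairs, against 1.43%, 4.41%, 2.21% and 0.96% of all genes. None was higher in Lgr5+ cells within tuft marker+ (0), against 2.17% of genes. Scaling to the median put the Lgr5- median at -1.175 and the tuft marker+ median at 0.36. In the latter pair 1 member was lower and 10 higher, against 7.39% and 14.8% of genes, and 7 were lower within tuft marker-, against 7.17%. With the authors' scaled values 11 were lower and 3 higher within Lgr5-, against 6.52% and 24.8%, with a median of -0.65. Quantile normalization gave 3 higher within tuft marker+, against 11.1%, and requiring detection on all arrays left 1 lower there, against 9.09%. The mean of all probes gave 0 higher within Lgr5-, against 14.7% of genes, and turned Aurkb there to -0.46. Within tuft marker+ it gave 2 higher, against 7.44%, with a median of 0.35 (0.355). With the second brightest probe the medians were -1.17 within Lgr5- and 0.48 within tuft marker+. Members higher then numbered 2 within Lgr5+, 0 within Lgr5- and 5 within tuft marker+, against 10.7%, 15.9% and 9.79% of genes. Aurkb within Lgr5- turned to -1.85 and Top2a to 0.22. The cause of these shifts was not tested. The other 107 values of these medians and counts stayed within their scanner error or within 1.5 times. For single members 914 values stayed within their error, 163 shifted by more, and 3 changed the sign of a 2-fold difference. Dim probes limit Cdk1, Cdc25c, Kif18b and Ttk.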
